A study of Mus musculus with 8 samples.

Results

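The genes described here are 9 core components of bone morphogenetic protein (BMP) signalling in the embryonic mouse trachea: 3 type I receptor genes (Bmpr1a, Bmpr1b and Acvr1), 3 type II receptor genes (Bmpr2, Acvr2a and Acvr2b), the receptor Smad genes Smad1 and Smad5, and the common Smad gene Smad4. They were chosen by name, and all 9 were among the 23478 gene symbols counted in each of the 2 deposited tables. RNA was sequenced in 8 libraries at E13.5, the embryonic day when cartilage of the trachea begins to form. In sorted tracheal cells, 2 mutant libraries carried Bmp4flox/flox with a Cre allele and the reporter γSMAeGFP, and 3 control libraries carried Bmp4flox/flox with γSMAeGFP and no Cre. In whole tracheas, 1 library was Wls flox/flox with ShhCre+, and 2 control libraries were Wls flox/flox without Cre. Shh Cre acts in the foregut epithelium. Every library thus carried floxed alleles, only mutants carried Cre, and an effect of Cre itself cannot be told apart from that of the deletion. The sort removed cells stained for EPCAM, an epithelial protein, and cells with the smooth muscle reporter, and the labels call what was left chondroblasts. Nothing in the labels tells whether each library had its own embryos or litter, so p-values measure only how these libraries vary, which may be technical variation.

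BMP ligands bind a complex of type I and type II receptors, both of them serine and threonine kinases. The type II receptor phosphorylates the type I receptor, which then phosphorylates Smad1 or Smad5. These join Smad4, which is shared with the TGF-beta branch of the pathway, and act on genes in the nucleus. In the mesenchyme of the developing trachea BMP4 is needed for the cartilage rings, and in the mouse limb Bmpr1a and Bmpr1b overlap in the formation of cartilage. Wls carries Wnt ligands to the cell surface, and epithelial Wnt signals act on the same mesenchyme.

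Sequencing depth was 12964287 and 15462780 counts in the Bmp4 mutants, between 48876948 and 55492747 in their controls, 24596836 in the trachea without Wls, and 27237573 and 31399982 in the corresponding controls. The deleted genes were lower in the mutants: Bmp4 had 24.1 and 32.2 CPM (read counts relative to library depth, scaled by TMM) in the Bmp4 mutants against 124, 99.2 and 121 CPM in their controls, and Wls had 65.8 CPM in the Wls mutant against 153 and 146 CPM in its controls. Each was also lower in the other kind of mutant. Wls had 59.5 and 95.5 CPM in the Bmp4 mutants against 201.5, 135.6 and 161.2 CPM in their controls (log2 fold change -1.10). Bmp4 had 30.9 CPM in the Wls mutant against 50.7 and 49.1 CPM in its controls (log2 fold change -0.69). Summed over 11 cartilage markers found of 12, the sorted cells held 641 and 1663 CPM in the Bmp4 mutants and 5367, 3378 and 2742 CPM in the controls, in every library below the sum of 9 fibroblast and perichondrial genes, 12580 and 15510 CPM in the Bmp4 mutants and 6830 to 10020 CPM in the controls. Other lists were also higher in both Bmp4 mutants than in every control: endothelium with 262 and 206 CPM in mutants and 26.6 to 124 CPM in controls, neurons and neural crest with 615 and 756 CPM in mutants and 302 to 487 CPM in controls, and airway epithelium with 100.4 and 68.9 CPM in mutants and 24.5 to 36.5 CPM in controls. Not every gene of a list followed its sum. Tbx5 of the fibroblast list had 105 and 137 CPM in Bmp4 mutants and 235 to 278 CPM in controls. Sox10 of the neural list had 19.4 and 36.7 CPM in mutants and 35.9 to 51.8 CPM in controls. Nkx2-1 of the epithelial list had 0.154 and 2.91 CPM in mutants and 2.19 to 9.68 CPM in controls. The part of these lists in the results below was not tested. Bmp4 mutant 1 stood apart. Erythroid markers summed to 109200 CPM there, against 1097 CPM in mutant 2 and 29.1 to 7772 CPM in the controls, and smooth muscle markers to 1616 CPM against 268 CPM in mutant 2 and 119 to 158 CPM in the controls. Both Bmp4 mutants also carried counts in genes that were silent in the controls. The 4346 genes without a count in any control held 21.2 and 19.6 counts per kb of exon in the mutants, a rate called the background here. Spread evenly over all exons it makes up 11.3% and 8.78% of the mutants' counts. Its part in the marker sums above was not tested. In bulk RNA, fewer cells of a type and less RNA per cell cannot be told apart.

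In the Bmp4 mutant cells 3 of the 9 genes were lower and 0 higher, out of 9 tested: Bmpr1a, Bmpr2 and Smad4 fell by edgeR's quasi-likelihood test at an adjusted p under 0.05. Over all 21665 genes tested, 15.6% were called lower and 39.3% higher, and among genes above 2 times the background, 28.7% were called lower and 10% higher. The share of lower calls among the 9 members is therefore close to that of other genes above the background. The members' groups did not overlap in 4 cases, with both mutants below every control for Bmpr1a, Bmpr2 and Smad4 and above every control for Bmpr1b, against 25.6% and 48.2% of all genes tested. The median log2 fold change was -0.31 for genes above the background and 0.53 for all genes tested, and that of each member stands relative to those shifts. In the Wls mutant trachea 1 of the 9 members was called, Bmpr1b, which was higher, while 2.39% of 15815 genes were called lower and 1.88% higher.

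**Figure D1:**
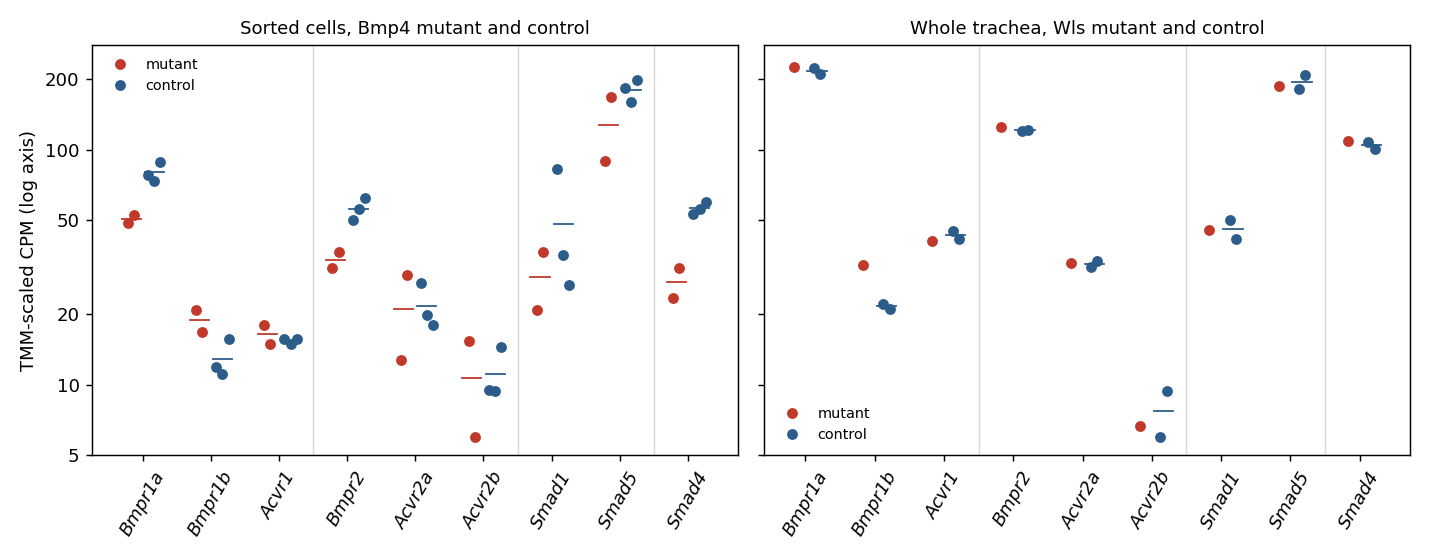
TMM-scaled CPM (log axis) of the 9 genes in each library, in sorted cells (left) and whole trachea (right), with mutants in red and controls in blue. Horizontal lines are group means where a group has more than 1 library, and grey vertical lines divide type I receptors, type II receptors, receptor Smads and Smad4. In sorted cells the red points lie below all blue points for Bmpr1a, Bmpr2 and Smad4, and in the trachea Bmpr1b has the widest gap, with 32.5 CPM in the mutant against 22.2 and 20.9 CPM.

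Levels were compared between genes within a library per kb of exon. In the sorted cells of the Bmp4 mutants, Smad5 was highest with 12.4 and 23.3 CPM per kb, against 25.4, 22.3 and 27.7 CPM per kb in controls. Smad4 had 6.93 and 9.27 CPM per kb in mutants and 15.8, 16.5 and 17.7 CPM per kb in controls, where it came after Smad5. Bmpr1a was the most abundant receptor, with 8.20 and 8.83 CPM per kb in mutants and 13.2, 12.4 and 14.8 CPM per kb in controls. The spread of Smad1 in the controls, from 8.55 to 26.6 CPM per kb, reached across the levels of Bmpr1a and Smad4, so its place in this order is not defined. The other receptors lay lower and close together: Acvr1, Bmpr2 and Acvr2a overlapped between 3.15 and 4.82 CPM per kb in controls, and Acvr2b and Bmpr1b overlapped between 1.91 and 4.07 CPM per kb.

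In the tracheas Bmpr1a stood at the top with 37.8 CPM per kb in the Wls mutant and 37.3 and 35.3 CPM per kb in controls. Smad4 followed with 32.1 CPM per kb in the mutant and 32.0 and 29.8 CPM per kb in controls, then Smad5 with 26.2 CPM per kb in the mutant and 25.3 and 29.0 CPM per kb in controls. Smad1 and Acvr1 overlapped in the controls, between 12.6 and 16.3 CPM per kb, and Bmpr2 was at 9.33 and 9.40 CPM per kb. The lowest were Acvr2a at 5.59 and 5.89, Bmpr1b at 3.80 and 3.59 and Acvr2b at 1.68 and 2.63 CPM per kb in controls. The bottom of the list was thus shared by both tissues: Bmpr1b and Acvr2b had the lowest mean levels per kb in controls of each table. No level was tested across the tables, which come from different kits and tissues.

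**Figure D2:**
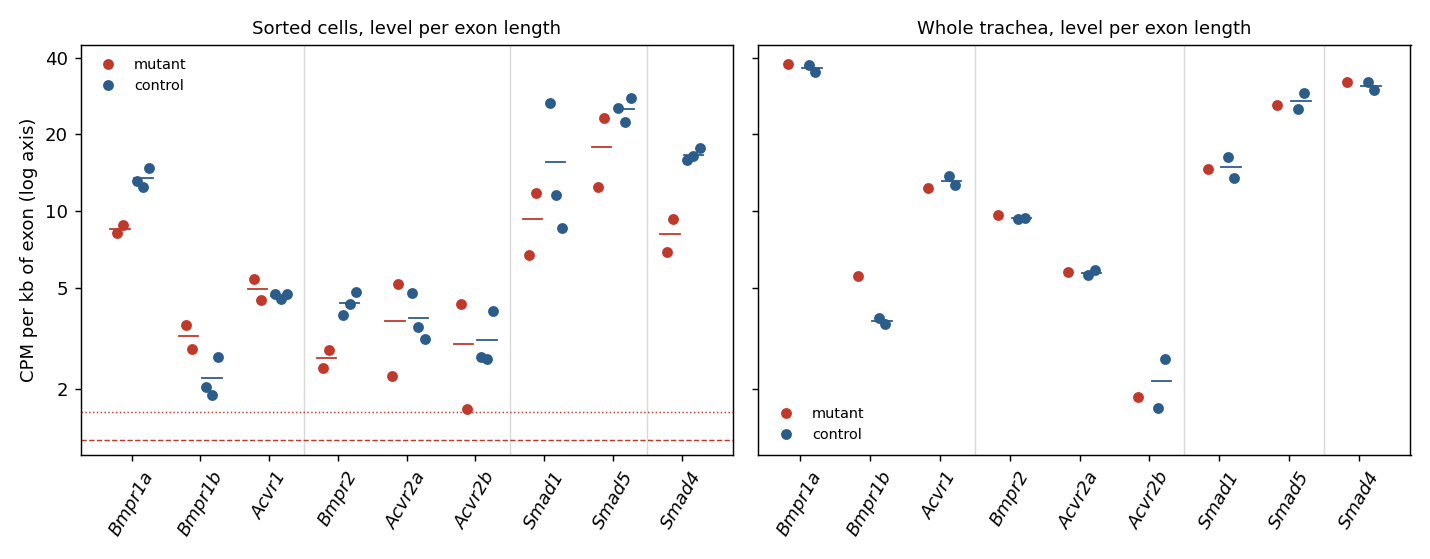
CPM per kb of exon (log axis) of the 9 genes in each library of sorted cells (left) and trachea (right), mutants in red and controls in blue, lines at group means. The dotted and dashed red lines mark the mean background in Bmp4 mutant 1 (1.63 CPM per kb) and mutant 2 (1.27 CPM per kb), which Acvr2b in mutant 2 nearly reaches at 1.68 CPM per kb.

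Of the type I receptor genes, Bmpr1a (GENCODE vM21, mm10, chromosome 14, 34410734 to 34503341, minus strand), whose product is also called ALK3, had 48.9 and 52.6 CPM in the Bmp4 mutants against 78.3, 73.9 and 88.3 CPM in the controls. The groups were apart by more than either spread, and Bmpr1a fell with a log2 fold change of -0.66 ± 0.15 (SE, adjusted p = 0.0082). The call ended without mutant 1 (log2 fold change -0.63, adjusted p = 0.064). Bmpr1b, or ALK6 (chromosome 3, 141837136 to 142169425, minus strand), which marks cartilage condensations of the mouse limb, had 20.7 and 16.8 CPM in mutants and 11.9, 11.1 and 15.7 CPM in controls. Both mutants lay above the highest control, but the log2 fold change of 0.55 ± 0.28 did not pass (adjusted p = 0.13). It passed with TMM factors taken from genes above the background, where it was 0.84 ± 0.29 (adjusted p = 0.045) and where 5.53% of all genes were called lower and 43.5% higher. Acvr1, or ALK2, a type I receptor for BMP6 and BMP7 among others, had 17.9 and 14.8 CPM in mutants and 15.6, 14.9 and 15.6 CPM in controls. These values overlapped, with a log2 fold change of 0.09 ± 0.24 (adjusted p = 0.77).

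Of the type II receptor genes, Bmpr2 (chromosome 1, 59763400 to 59879014, plus strand), the receptor specific to BMP and GDF ligands, had 31.3 and 36.9 CPM in the Bmp4 mutants against 50.3, 55.8 and 62.1 CPM in the controls. Every mutant value was under every control value, and Bmpr2 fell with a log2 fold change of -0.72 ± 0.17 (adjusted p = 0.010). The call ended without mutant 1 (log2 fold change -0.62, adjusted p = 0.076). Acvr2a and Acvr2b encode the activin type II receptors, which also bind BMPs. Acvr2a had 12.8 and 29.3 CPM in mutants and 27.2, 19.9 and 17.9 CPM in controls. Acvr2b went the other way between the mutants, with 15.4 and 6.003 CPM there and 9.53, 9.38 and 14.5 CPM in controls. For both genes the 2 mutants lay on opposite sides of all 3 controls. The log2 fold changes were -0.04 ± 0.38 for Acvr2a (adjusted p = 0.94) and -0.06 ± 0.46 for Acvr2b (adjusted p = 0.92), and with TMM factors from genes above the background both turned to 0.25. Acvr2a shares 446 exon bases with Orc4 on the opposite strand. The strand setting of the counting is not given in the sources used here, so reads there cannot be assigned to 1 of the 2 genes. Orc4 had a log2 fold change of -0.46 in the Bmp4 mutants (adjusted p = 0.11).

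Smad4 (chromosome 18, 73639009 to 73703780, minus strand), the partner that both BMP and TGF-beta receptor Smads share, had the largest fall of the 9 genes in the deposited counts. After even background subtraction Bmpr2 had the lowest value, but the even rate may take too many of its counts. Smad4 had 23.5 and 31.4 CPM in the Bmp4 mutants against 53.5, 55.7 and 59.7 CPM in the controls, which lay close to each other. The log2 fold change was -1.04 ± 0.18 (adjusted p = 0.0036). It stayed past the test without each library in turn, between -1.26 and -0.86 (adjusted p between 0.0055 and 0.041), and with TMM factors from genes above the background (-0.75 ± 0.18, adjusted p = 0.0097), the only member of the 3 that did. Bmpr1a and Bmpr2 were then at -0.37 (adjusted p = 0.072) and -0.43 (adjusted p = 0.071).

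Smad1 and Smad5 carry the BMP signal from the receptor and are close relatives. Smad1 had 20.9 and 36.6 CPM in the Bmp4 mutants and 82.4, 35.8 and 26.5 CPM in the controls. The controls spanned a 3.11-fold range, wider than for any other member, and control 1, the highest for Smad1, also had the highest cartilage marker sum. With overlapping groups, its log2 fold change of -0.74 ± 0.49 did not pass (adjusted p = 0.23), and it was -0.11 without control 1. Smad5 had 89.2 and 167 CPM in mutants and 182, 160 and 199 CPM in controls. Mutant 2 lay inside the range of the controls and mutant 1 far under it. The log2 fold change was -0.49 ± 0.27 (adjusted p = 0.15), and Smad5 was called lower only without mutant 2 (-1.01, adjusted p = 0.026), and was at -0.13 without mutant 1. The cartilage marker sum was also lowest in mutant 1, and its part in the values of Smad5 was not tested.

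The background took a different share of each member's counts. At the even rate it came to 63.8% and 38.8% of the counts of Bmpr2 in mutants 1 and 2, since its exons sum to 12.9 kb, and to 43.4% and 38.4% of those of Bmpr1b. It came to 68.8% and 21.5% for Acvr2a and to 35.9% and 66.0% for Acvr2b. For Bmpr1a it was 18.9% and 12.6%, for Acvr1 28.5% and 24.7%, for Smad1 22.9% and 9.38%, for Smad4 22.3% and 12.0%, and for Smad5, the most abundant, 12.4% and 4.77%. The background was not even. Silent genes within 2-fold of the length of Bmpr2 had a median of 3.28 and 3.33 counts per kb in the mutants, under the mean rate, and at that median the background is 9.89% and 6.60% of Bmpr2's counts. Even their 90th percentile gives 55.3% and 20.5%, under the share taken at the even rate. For Bmpr1b the median silent gene of like length gives 20.3% and 18.7%, and the 90th percentile gives 75.0% and 63.7%.

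**Figure D3:**
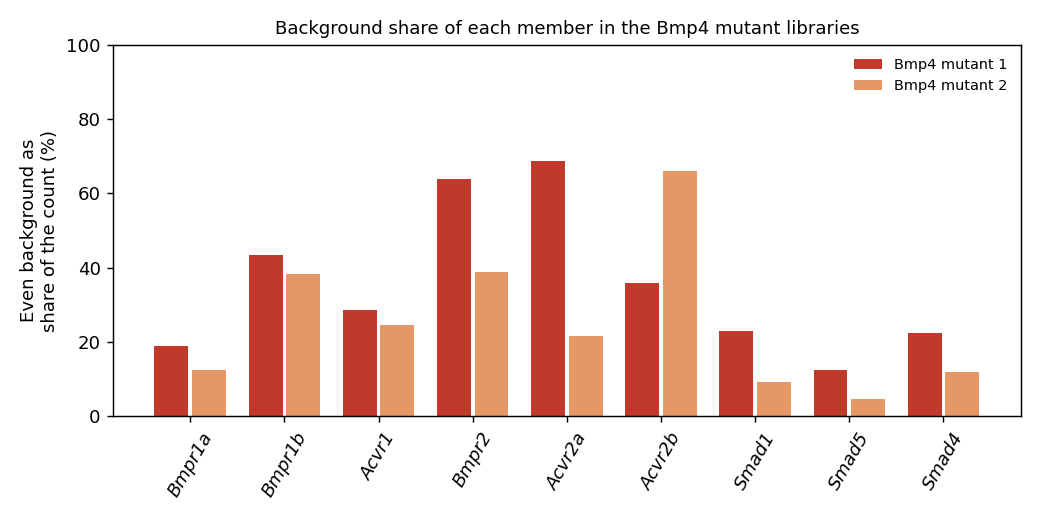
Counts expected from an even background as a percentage of each gene's own count in Bmp4 mutant 1 (dark) and mutant 2 (light). The bars are highest for Acvr2a in mutant 1 (68.8%), Acvr2b in mutant 2 (66.0%) and Bmpr2 in mutant 1 (63.8%), and lowest for Smad5.

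With the even background subtracted, 8 of the 9 genes were above the limit of 2 times the background and were tested, and 0 passed edgeR's test, with 3 at an unadjusted p under 0.05. Over 11637 genes 1.83% were then called lower and 4.94% higher. Bmpr2 was at 15.5 and 28.0 CPM after subtraction in mutants against 46.1, 52.0 and 58.2 CPM in controls, a log2 fold change of -1.25 ± 0.28 (adjusted p = 0.056). For Bmpr2 the even rate exceeds the 90th percentile of silent genes of like length in both mutants, so this fall may be overstated. Smad4 was at -0.82 ± 0.19 (adjusted p = 0.062) and Bmpr1a at -0.41 ± 0.14 (adjusted p = 0.13). For these 3 genes both mutants stayed below every control after subtraction. Bmpr2 and Smad4 were at -1.71 and -1.03 without mutant 2, and at -0.89 and -0.60 without mutant 1. Without control 1 neither passed (-1.33 and -0.86, adjusted p = 0.12 and 0.15). Exon lengths from the GENCODE basic set, chosen after seeing the data, let both pass, at -0.94 (adjusted p = 0.036) and -0.84 (adjusted p = 0.035). The other 5 lay between -0.49 (Smad1) and 0.14 (Acvr1), with adjusted p between 0.60 and 0.86. Bmpr1b was under the limit and not tested. All 9 were tested with the basic lengths, or with the rate of olfactory and vomeronasal receptor genes. Bmpr1b was not called in either.

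**Figure D4:**
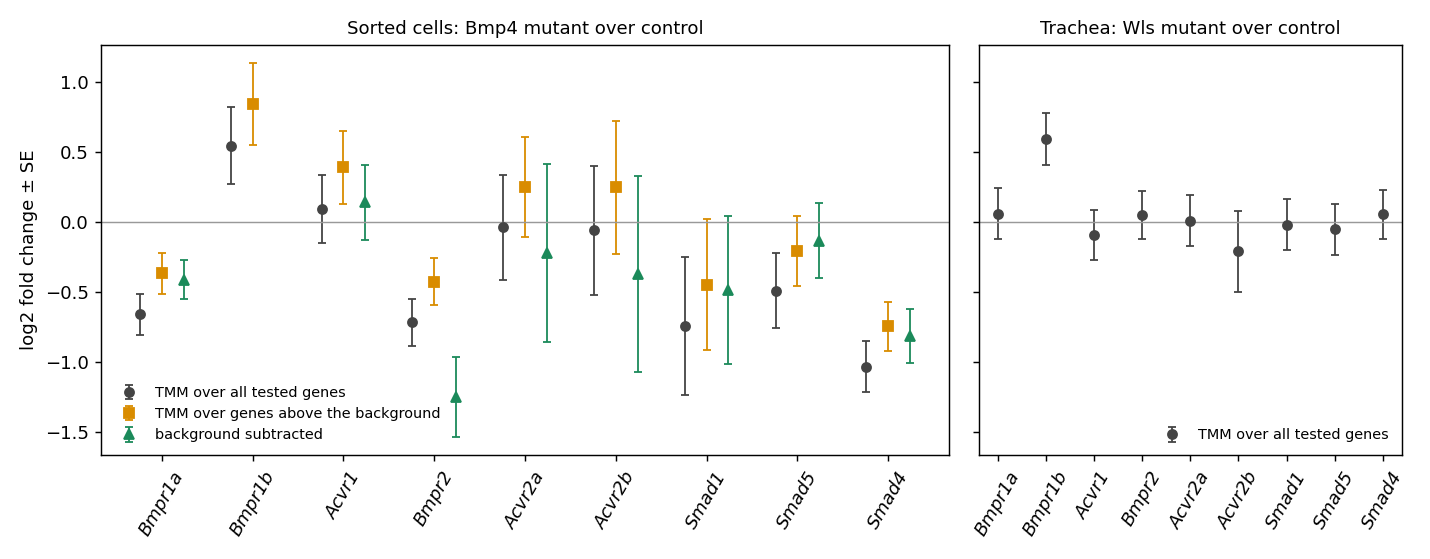
Log2 fold change with SE of the 9 genes, mutant over control, in sorted cells (left) and trachea (right). Grey circles are the fit on deposited counts, orange squares the same with TMM factors from genes above the background, and green triangles the fit after background subtraction, which has no value for Bmpr1b. Bmpr1a, Bmpr2 and Smad4 are below 0 in all 3 fits of the sorted cells, whereas in the trachea 8 genes are between -0.21 and 0.06 and Bmpr1b is at 0.59.

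Among the type I receptors the make-up of the sorted cells was as follows. Of the summed type I receptor level per kb, Bmpr1b made up 20.7% and 17.8% in the Bmp4 mutants against 10.2%, 10.1% and 12.1% in the controls. Bmpr1a made up 47.7% and 54.5% in mutants against 66.1%, 65.9% and 66.6% in controls. Neither pair of groups overlapped. After even subtraction Bmpr1a was at 53.1% and 59.9% and Bmpr1b at 16.1% and 13.8% in mutants, both nearer to the controls, so the shares depend on the background. At this even rate Bmpr1b is under the background limit, so background and expression cannot be told apart for its share. These shares do not depend on the scaling between libraries, and they carry no test. Among the type II receptors Bmpr2 made up 27.0% and 29.5% in mutants against 34.4% to 41.4% in controls, while Acvr2a and Acvr2b had 1 mutant on each side of the controls. The summed level of the 3 type I receptors was 17.2 and 16.2 CPM per kb in mutants and 19.9, 18.8 and 22.2 CPM per kb in controls, and that of the type II receptors 8.99 and 9.70 CPM per kb in mutants and 11.3, 10.4 and 12.0 CPM per kb in controls. Unlike the shares, these sums depend on the scaling, and factors from genes above the background moved the median log2 fold change by 0.29, so no order of the groups is read from them. The ratio of type I to type II sums overlapped, at 1.91 and 1.67 in mutants and 1.76, 1.80 and 1.85 in controls. Smad5 made up 64.8% and 66.3% of the receptor Smad sum in mutants, inside the control range of 48.9% to 76.4%.

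**Figure D5:**
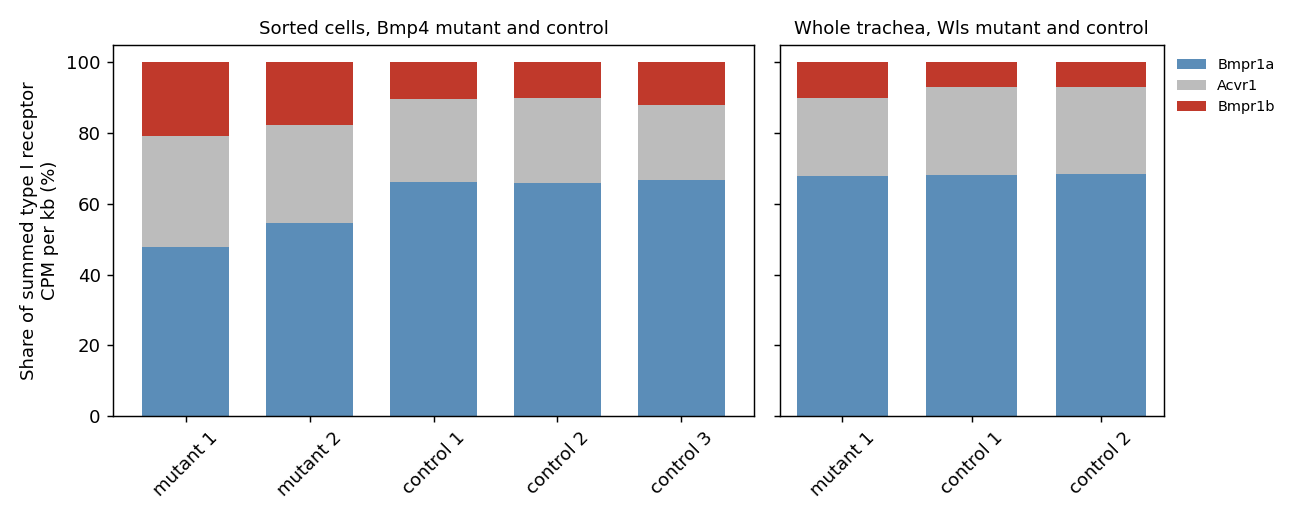
Share of each type I receptor gene in their summed CPM per kb (%), in each library of sorted cells (left) and trachea (right). The red part, Bmpr1b, is 20.7% and 17.8% in the Bmp4 mutants and 10.1% to 12.1% in their controls, and 10.01% in the Wls mutant trachea against 6.94% and 6.98% in its controls.

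In the Wls mutant trachea Bmpr1b had 32.5 CPM against 22.2 and 20.9 CPM in the controls, from 792 counts in the mutant and 593 and 673 counts in the controls. It rose with a log2 fold change of 0.59 ± 0.19 (adjusted p = 0.044). This comparison has 1 residual degree of freedom and its lone mutant is assumed to vary like the controls. DESeq2 gave the same size without a call (0.60, adjusted p = 0.39). Against each control alone the log2 fold change was 0.55 and 0.64. Bmpr1b made up 10.01% of the type I receptor sum in the mutant and 6.94% and 6.98% in controls, while Bmpr1a made up 67.8% against 68.1% and 68.5%. Smooth muscle markers summed to 2713 CPM in the Wls mutant against 1952 and 1690 CPM in controls, airway epithelial markers to 1125 CPM against 794 and 662 CPM, and cartilage markers to 706 CPM against 1836 and 1606 CPM. Their part in the value of Bmpr1b was not tested.

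The other 8 genes in this trachea had log2 fold changes between -0.21 (Acvr2b) and 0.06 (Bmpr1a) and adjusted p of at least 0.83. Bmpr1a had 225 CPM in the Wls mutant against 222 and 210 CPM in controls. Smad4 had 109 CPM in the mutant against 108 and 101 CPM in controls, and Bmpr2 125 CPM against 120 and 121 CPM. Counting Bmpr1b, 4 genes lay above both controls and 1, Acvr1 with 40.7 CPM against 45.3 and 41.7 CPM, lay below both, while 36.9% and 37.6% of all genes did so. Smad5 was at 188 CPM in the mutant against 181 and 208 CPM in controls, Smad1 at 45.4 CPM against 50.5 and 41.7 CPM, Acvr2a at 32.9 CPM against 31.8 and 33.5 CPM, and Acvr2b at 6.68 CPM against 6.01 and 9.39 CPM. These 4 lay within the range of their controls.

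The Bmpr1b promoter windows read here had lower CG ratios than those of 7 other members. Bmpr1b is shown because it was the only member called higher in the Wls mutant, and Bmpr1a because it is its closest relative. Windows of 250 bases before each RefSeq start (GRCm38.p6) were found for 8 of the 9 genes. The Bmpr1b windows lie inside the GENCODE gene, which reaches further upstream to 142169425, and its most upstream start was not read. The windows of Bmpr1a, Acvr1 and Bmpr2 and a window of Smad5 also lie inside their GENCODE genes. Annotated exons covered all 250 bases for Acvr1 and Bmpr2, 141 bases for Bmpr1a and 159 bases for that Smad5 window. In the Bmpr1b windows they covered 0, 0 and 103 bases. The part of exon sequence in the CG ratios was not tested. In the 3 Bmpr1b windows the ratio of observed to expected CG dinucleotides was 0.073, 0.299 and 0.252, and in the 9 windows of the other 7 genes it was between 0.735 and 1.231. The median over 32817 mouse windows was 0.373. CG dinucleotides are in capitals in the following stretches, which hold no annotated exon and are read on the minus strand at chr3:141982265-141982514, chr3:141931589-141931838 and chr14:34502688-34502796.
Bmpr1b, first window: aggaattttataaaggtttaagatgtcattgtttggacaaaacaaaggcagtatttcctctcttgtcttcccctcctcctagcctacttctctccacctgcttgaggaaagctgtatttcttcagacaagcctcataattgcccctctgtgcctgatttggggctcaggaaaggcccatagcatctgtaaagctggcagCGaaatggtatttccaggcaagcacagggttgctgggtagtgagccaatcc
Bmpr1b, second window: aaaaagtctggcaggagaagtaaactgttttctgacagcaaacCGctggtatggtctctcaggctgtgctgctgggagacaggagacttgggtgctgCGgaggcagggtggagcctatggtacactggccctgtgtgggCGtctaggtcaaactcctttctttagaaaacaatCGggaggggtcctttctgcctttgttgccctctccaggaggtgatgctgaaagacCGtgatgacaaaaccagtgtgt
Bmpr1a: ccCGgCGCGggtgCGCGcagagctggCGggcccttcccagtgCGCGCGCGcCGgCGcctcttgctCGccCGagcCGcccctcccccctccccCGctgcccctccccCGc
The first Bmpr1b window holds 1 CG in 250 bases and the second 5, whereas the Bmpr1a stretch holds 17 in 109 bases. The letters GGCGCC, a GC-rich element that Smad1 and Smad5 can bind, were searched on both strands and were present in a window of Bmpr1a, Bmpr2 and Smad5 and in 9.59% of all windows. CAGAC, the short Smad4 box, was in a window of Bmpr1b, Acvr2a, Acvr2b and Smad5 and in 42.2% of all windows. ATCAAAG, a motif of TCF and LEF, the nuclear factors of Wnt signalling, was in none of the members' windows and in 3.21% of all windows. None of these letters overlapped another motif searched. A match is a description of the letters and not a bound site.

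Other receptors and Smads of the family were read from a list of 11 genes, all tested in both comparisons. In the Bmp4 mutants 3 fell and 2 rose, with a median log2 fold change of -0.49, and in the Wls mutant 2 fell and 0 rose by edgeR, with a median of -0.11. Of all genes tested, 15.6% fell and 39.3% rose in the Bmp4 mutants, and 2.39% fell and 1.88% rose in the Wls mutant. Smad9, the third Smad that BMP type I receptors can phosphorylate, was lower in both. It had 10.9 and 11.7 CPM in the Bmp4 mutants against 26.8, 23.9 and 21.4 CPM in controls (log2 fold change -1.09 ± 0.23, adjusted p = 0.0070), and it passed after subtraction too (-2.06 ± 0.39, adjusted p = 0.036). Subtraction left 3.51 and 7.11 CPM in the mutants. For Smad9 the even rate was not set against silent genes of like length, so the subtracted fall may be overstated. In the Wls mutant Smad9 had 32.0 CPM against 51.9 and 45.1 CPM in controls (-0.60 ± 0.19, adjusted p = 0.040, with DESeq2 0.29 and without the expression filter 0.051). Of the 3 BMP receptor Smads, the main fit called Smad9 in both tables and Smad1 and Smad5 in neither, but no test compared these genes with each other.

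Tgfbr1 and Smad2, of the TGF-beta branch, fell in the Bmp4 mutants with log2 fold changes of -0.62 ± 0.16 and -0.68 ± 0.17 (adjusted p = 0.014 and 0.013). After subtraction Tgfbr1 and Smad2 were at -0.22 and -0.51 (adjusted p = 0.36 and 0.15), and without mutant 1 at -0.52 and -0.50 (adjusted p = 0.071 and 0.074). Tgfbr2, the TGF-beta type II receptor, rose, with 104 and 175 CPM in mutants against 82.2, 90 and 76.0 CPM in controls (0.75 ± 0.22, adjusted p = 0.025, and 1.11 ± 0.22, adjusted p = 0.041 after subtraction). Without mutant 2 it was at 0.33 (adjusted p = 0.11), and without any 1 of the controls its adjusted p was between 0.050 and 0.083. Acvr1c, a receptor for Nodal and activin ligands, was called higher with 20.7 and 20.7 CPM in mutants against 0.0195, 0.132 and 0.145 CPM in controls. It was under the background limit, so background and expression cannot be told apart for it. In the Wls mutant Acvrl1, the BMP9 receptor of endothelium, fell with 16.8 CPM against 28.2 and 26.7 CPM in controls (-0.71 ± 0.20, adjusted p = 0.017, with DESeq2 0.22).

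The list of coreceptors and the pseudoreceptor gene Bambi had 7 of 8 genes in the tables, of which 4 fell and 1 rose in the Bmp4 mutants, with a median of -0.46, and 1 fell in the Wls mutant, with a median of -0.21. Shares over all genes tested were 15.6% lower and 39.3% higher in the Bmp4 mutants, 28.7% and 10% among those above the background. In the Wls mutant 2.39% of all genes were called lower. Tgfbr3, or betaglycan, which presents TGF-beta and BMP ligands, rose with 63.9 and 96.8 CPM in Bmp4 mutants against 39.2, 45.1 and 24.4 CPM in controls (1.15 ± 0.29, adjusted p = 0.013, and 1.48 ± 0.30, adjusted p = 0.042 after subtraction). Without mutant 2 it was at 0.82 (adjusted p = 0.11). The genes that fell included Rgma, a BMP coreceptor, its partner receptor Neo1, and Bambi, which lacks a kinase and blocks signalling, at -0.87, -0.65 and -0.64 (adjusted p = 0.030, 0.028 and 0.020). After subtraction Rgma, Neo1 and Bambi were at -1.46, -0.39 and -0.22 (adjusted p = 0.073, 0.25 and 0.46), and without mutant 1 at -0.79, -0.56 and -0.57 (adjusted p = 0.0995, 0.13 and 0.095). Rgma also lost its call when any other library was left out. Neo1 lost it without mutant 2 (log2 fold change -0.765) or control 1 (adjusted p = 0.073), and Bambi without control 2 or control 3 (adjusted p = 0.074 and 0.0545). Eng, or endoglin, which works with Acvrl1 in endothelium, fell in the Wls mutant with 34.5 CPM against 58.9 and 61.2 CPM in controls (-0.80 ± 0.19, adjusted p = 0.0015). Endothelial markers summed to 320 CPM in that mutant against 407 and 471 CPM in its controls, and their part in the values of Acvrl1 and Eng was not tested.

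Of 26 intracellular regulators of receptors and Smads, 9 fell and 2 rose in the Bmp4 mutants with a median of -0.51, and 2 fell and 1 rose of 23 tested after subtraction. Among all genes above the background 28.7% were called lower and 10% higher, and after subtraction 1.83% and 4.94%. In the Wls mutant, where the median was -0.03, 0 passed by edgeR (1 at an unadjusted p under 0.05) and 0 by DESeq2 (0 at an unadjusted p under 0.05). Nedd4l, a ubiquitin ligase that marks activated Smads for breakdown, rose with 44.9 and 33.9 CPM in Bmp4 mutants against 15.8, 16.5 and 14.8 CPM in controls (1.33 ± 0.21, adjusted p = 0.0033, and 1.61 ± 0.22, adjusted p = 0.021 after subtraction). Ctdsp1, a phosphatase that acts on Smads, fell (-1.05 ± 0.19, adjusted p = 0.0038, and -0.89 ± 0.19, adjusted p = 0.0497 after subtraction). Its relative Ctdsp2 and the Smad corepressor gene Tgif1 fell by 1.06 and 1.04 on the log2 scale (adjusted p = 0.0033 and 0.010), and were at -0.66 and -0.62 after subtraction (adjusted p = 0.057 and 0.17). Magi2, which encodes a scaffold protein, rose (1.60 ± 0.39, adjusted p = 0.012) and was under the background limit. Of 13 DNA-binding partners and coactivators of Smads, 2 fell and 4 rose in the Bmp4 mutants, where 15.6% of all genes fell and 39.3% rose. In the Wls mutant 0 of the 13 passed by edgeR (5 at an unadjusted p under 0.05) and 0 by DESeq2 (2 at an unadjusted p under 0.05). Crebbp, a histone acetyltransferase that Smads recruit, fell with 60.1 and 54.3 CPM in Bmp4 mutants against 114, 110 and 115 CPM in controls (-0.98 ± 0.14, adjusted p = 0.0033, and -0.90 ± 0.13, adjusted p = 0.021 after subtraction). Yap1 fell too (-0.89 ± 0.19, adjusted p = 0.0070, and -0.70, adjusted p = 0.091 after subtraction), and the genes that rose included Runx2, Runx3 and Hoxc8, at 2.02, 1.47 and 5.92. Runx2 and Hoxc8 were under the background limit and Runx3 was at 1.45 after subtraction (adjusted p = 0.078). Without mutant 1 the calls of Tgif1, Magi2, Yap1, Runx2, Runx3 and Hoxc8 ended. Their log2 fold changes were then -0.81, 1.07, -0.85, 1.38, 1.16 and 5.49.

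At the ends of the pathway, 10 of 19 BMP response genes fell and 0 rose in the Bmp4 mutants, with a median of -1.23. There 15.6% of all genes tested and 28.7% of those above the background were called lower. In the Wls mutant 6 fell and 0 rose, with a median of -0.38, where 2.39% of all trachea genes were called lower. The list was chosen with earlier results of these data known, so these counts are no test of it. After subtraction 10 of the 19 were tested and 2 fell, where 1.83% of all genes were called lower. The share among genes above the background thus does not cover the whole list. The list holds Sox9, a cartilage marker, and the cartilage marker sums were lower in both kinds of mutant, and their part in these counts was not tested. The leading genes were Msx2, Nog and Sp7 in the Bmp4 mutants, at -3.49, -2.27 and -2.19, and Msx2, Sp7 and Sox9 in the Wls mutant, at -2.18, -1.75 and -1.28. After subtraction Sp7 passed (-3.19, adjusted p = 0.019), Msx2 did not (-4.25, adjusted p = 0.070) and Nog was under the background limit. The 9 receptor and Smad genes lay between -1.04 (Smad4) and 0.55 (Bmpr1b) in the Bmp4 mutants and between -0.21 (Acvr2b) and 0.59 (Bmpr1b) in the Wls mutant. Shares called lower and higher over all genes were 15.6% and 39.3% in the sorted cells and 2.39% and 1.88% in the tracheas. Of 19 BMP and GDF ligand genes, 2 fell and 4 rose in the Bmp4 mutants, and 4 of 17 tested fell in the Wls mutant, among them Gdf10 and Bmp6 at -1.42 and -1.66. The genes that rose included Bmp8a, Bmp8b and Bmp10, each with at most 0.117 CPM in any control and all under the background limit. Gdf5, a ligand with a preference for Bmpr1b, fell in both, with 31.9 and 67.1 CPM in the Bmp4 mutants against 225, 199 and 165 CPM in controls (-1.99 ± 0.33, adjusted p = 0.0033) and with 8.60 CPM in the Wls mutant against 34.7 and 30.8 CPM in controls (-1.93 ± 0.22, adjusted p = 2.9e-13). Of 17 extracellular antagonists and modulators, 4 fell and 1 rose in the Bmp4 mutants, and 4 fell and 3 rose in the Wls mutant, beside the same shares over all genes. The antagonist gene Fst rose in both, at 2.01 ± 0.52 (adjusted p = 0.015) in the Bmp4 mutants and 1.42 ± 0.24 (adjusted p = 4.1e-06) in the Wls mutant. In the sorted cells it was under the background limit, and leaving out mutant 1, mutant 2 or control 2 ended the call (adjusted p = 0.069, 0.074 and 0.057). In the Wls mutant Bmper and Nog fell, at -0.90 and -1.01, Nog without a call by DESeq2 (adjusted p = 0.24). They were also called lower in the Bmp4 mutants, at -1.15 and -2.27, but neither was called without mutant 1 (-0.70 and -3.20, adjusted p = 0.13 and 0.069), and Bmper was at -0.74 after subtraction (adjusted p = 0.25). Without mutant 2 Nog was at -1.69 (adjusted p = 0.19), and without control 1 Nog was at -1.63 and Bmper at -0.95 (adjusted p = 0.11 and 0.064), while without control 2 Bmper had an adjusted p of 0.072. Bmp1, which encodes a protease that cuts the antagonist chordin, fell in the Bmp4 mutants (-1.04, adjusted p = 0.0033) and in the Wls mutant (-0.87, adjusted p = 0.0015). The antagonist genes Chrdl1 and Nbl1 rose in the Wls mutant (1.09 and 0.91). In the Bmp4 mutants Chrdl1 was instead called lower (-0.80, adjusted p = 0.012) and was at -1.19 after subtraction (adjusted p = 0.073). Nbl1 was not called there (1.29, adjusted p = 0.11).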

How the data were processed

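RNA-seq counts per gene were used as the authors deposited them, whole numbers in 1 table of sorted cells and 1 of tracheas. Bowtie2, Cufflinks, DESeq and the build mm10 come from the submitters' processing notes, with Trim Galore for the sorted cells. The counting program, its annotation and its strand setting were not given in the sources used here. Per the labels' protocols, sorted cells were amplified with SMART-Seq v4 and tracheas with Ovation v2, so each table was fitted alone. The 9 genes and the pathway lists were chosen with earlier results of these data known. edgeR 4.0.16 in R 4.3.3 (TMM, default expression filter, quasi-likelihood F test, two-sided) gave log2 fold changes, and Benjamini-Hochberg adjusted p over all genes tested. The SE came from the fold change and F. Residual degrees of freedom were 3 for sorted cells and 1 for tracheas. Levels per kb used GENCODE vM21 exon lengths, found for 98.56% of symbols, and for Smad1 the exons sum to 3.10 kb, or 5.17 kb in the basic set. The background was the counts per kb in genes without a count in any control, subtracted per kb of exon and rounded, with genes kept whose mean was over 2 times its level. Summed marker CPM carry no TMM factors. Of each pathway list, up to 3 genes per direction and comparison with the largest called change were named, except that 1 gene, and the driver of the Cre in the sorted cells, are not reported here. DESeq2 1.42.0 and limma-voom 3.58.1 were alternatives, and the code was tested on simulated data. Reads carry no molecular identifiers. Pairs of libraries in a group differed by 23.4 to 184 times counting variance and were counted as separate samples.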

Additional observations from a re-analysis of the deposited data

How the results depend on the processing

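With DESeq2 size factors, DESeq2, limma-voom or no expression filter, 3 of the 9 genes were called in the Bmp4 mutants, as in the main test, and with TMM factors from genes above the background 2 were, Smad4 lower and Bmpr1b higher, with 10621 genes called in all. That scaling turned Acvr2a and Acvr2b to 0.25, and the median of all genes moved by 0.29. Background subtraction left 0 of 8 genes called, and 788 of 11637 over all genes against 11888 of 21665. With GENCODE basic lengths the subtracted calls were 2 and 1988, and with the rate of olfactory and vomeronasal receptor genes 2 and 2105, both chosen after seeing the data. Leaving out each library gave 1 to 4 members and 3595 to 10478 genes, and after subtraction 0 to 2 members and 0 to 1252 genes. Without each library in turn, log2 fold changes crossed 0 for Acvr1 (-0.067 to 0.22), Acvr2a (-0.76 to 0.42) and Acvr2b (-0.91 to 0.47), and after subtraction for Acvr1 (-0.039 to 0.34), Acvr2a (-1.83 to 0.51), Acvr2b (-2.03 to 0.42), Smad1 (-0.98 to 0.13) and Smad5 (-0.60 to 0.24). In the tracheas DESeq2 called 268 genes and 0 members against 676 and 1. The causes were not tested.

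Mutants and controls share only the numbers 1 and 2, and these numbers were not taken as pairs. Deviations from the group means gave r = -0.17 and -0.11 for same-numbered libraries. With 2 mutants the deviations of 1 mirror those of the other, so these r cannot decide whether the libraries were paired. A fit with a replicate block called 4 genes and 0 members, with Acvr2b at 0.030 and Bmpr1a, Bmpr2 and Smad4 at -0.58, -0.64 and -1.01 (adjusted p = 0.080, 0.075 and 0.053). The block leaves fewer residual degrees of freedom. Depth limits the Bmp4 mutants most, where Acvr2b had 211 and 106 counts.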
